A study of Homo sapiens with 4 samples.

Results

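The set comprised 37 genes known as targets induced by estrogen, such as GREB1, TFF1, TFF3, PDZK1, MYB, CTSD and AREG. They were taken by symbol from a list of such targets, some of which had been selected on their measured ratio of estradiol to vehicle UMIs in these same libraries, so the ratios are given below as a description, with no test. All 37 had a row among the 33538 all-gene rows of the deposited expression matrix, and 4 of them (MYB, MYC, RARA and RASGRP1) also had a row among the 1253 rows of a targeted pan-cancer panel. The cells were MDA MB 134VI (MM134), a line established from an invasive lobular carcinoma of the breast that expresses the estrogen receptor. Its cells were given estradiol (100 nM, 24 h) or vehicle (0.01% ethanol, 24 h), and both groups had been deprived of hormone beforehand. Each treatment gave 1 library per assay, so no difference could be tested between treatments and no p-value is given.

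The estrogen receptor, encoded by ESR1, is a transcription factor that binds estradiol, dimerises and is recruited to estrogen response elements, where it draws in coactivators. It also acts from a distance through enhancers opened by FOXA1 and GATA3, and through tethering to other DNA-bound factors. In luminal breast cancer its induced targets serve growth (MYC, MYB, GREB1), secretion (TFF1, TFF3, AREG, STC2), feedback on the receptor (NRIP1, SIAH2), chaperoning (FKBP4) and metabolism (CA12, ELOVL2, SLC7A5).

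A canonical estrogen response element is an inverted repeat of the short motif GGTCA, read as TGACC on the other strand, with 3 bases between the arms. The 250 bases before an annotated start, from RefSeq tables of GRCh38.p14, could be matched for 26 of the 37 genes. For NOS1AP, RAPGEFL1 and TPD52L1 that start lay inside the gene, so their windows are not upstream of the whole gene. No window could be matched for GREB1, TFF1, TFF3, MYC, MGP, PEG3, FKBP4, SGK3, MYBL1, ADCY9 and KRT13. Searched on both strands, the full element (GGTCA, any 3 bases, TGACC) stood in 0 of the 26 windows and in 12 of all 27305 windows (0.0439%). At least 1 single GGTCA motif, on either strand, stood in 8 of the 26 windows (30.8%) and in 33.1% of all windows. These matches describe letters in a window and say nothing of binding, and elements farther away are outside the windows. Of the genes below with the highest ratios, 2 are shown because their windows hold the motif and 1 because its window holds none; CTSD, a gene of more modest ratio, is shown for its 3 motifs. The GGTCA and TGACC motifs are in capitals, each sequence is on the strand of its gene, and all are on the minus strand. The windows are chr1:145707401-145707650 for PDZK1, chr19:15479502-15479751 for PGLYRP2, chr16:87869508-87869757 for SLC7A5 and chr11:1763928-1764177 for CTSD.
PDZK1: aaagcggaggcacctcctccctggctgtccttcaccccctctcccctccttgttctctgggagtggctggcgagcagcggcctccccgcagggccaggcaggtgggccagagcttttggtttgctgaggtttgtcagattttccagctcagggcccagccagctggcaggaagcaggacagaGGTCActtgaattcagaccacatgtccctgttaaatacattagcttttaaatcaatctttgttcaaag
PGLYRP2: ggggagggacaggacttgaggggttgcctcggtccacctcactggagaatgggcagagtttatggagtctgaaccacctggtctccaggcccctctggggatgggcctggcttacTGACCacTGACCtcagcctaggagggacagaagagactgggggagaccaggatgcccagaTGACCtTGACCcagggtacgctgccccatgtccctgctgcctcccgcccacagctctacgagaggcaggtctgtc
SLC7A5: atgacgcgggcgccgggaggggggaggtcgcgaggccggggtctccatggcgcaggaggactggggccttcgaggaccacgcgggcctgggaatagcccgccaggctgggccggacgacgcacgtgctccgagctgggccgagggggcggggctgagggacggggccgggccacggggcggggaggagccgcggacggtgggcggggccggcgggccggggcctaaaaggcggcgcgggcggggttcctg
CTSD: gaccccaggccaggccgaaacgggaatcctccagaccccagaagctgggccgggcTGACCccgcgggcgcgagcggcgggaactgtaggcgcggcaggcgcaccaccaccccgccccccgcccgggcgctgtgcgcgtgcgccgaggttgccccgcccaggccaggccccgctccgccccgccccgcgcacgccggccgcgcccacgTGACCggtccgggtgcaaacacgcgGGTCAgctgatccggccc
The last base of the single PDZK1 motif stood 64 bases before the start. PGLYRP2 had 4, all read as TGACC, so none of them formed an inverted repeat. They stood in a pair with a spacer of 2 bases and a pair with a spacer of 1 base. At least 4 motifs stood in 1 of the 26 windows and in 0.278% of all windows. The last bases of the CTSD motifs stood 191, 39 and 14 bases before the start.

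The estradiol library held 3367 cells with 5937422 all-gene UMIs (unique molecular identifiers, each a captured transcript) and 10352943 panel UMIs, and the vehicle library 4940 cells with 6918198 all-gene and 14080930 panel UMIs. Median all-gene UMIs per cell were 1561 with estradiol and 1199 with vehicle, and the median mitochondrial share was 7.62% with estradiol and 7.66% with vehicle. Going by the deposited phase calls, 34.5% of estradiol cells and 50.5% of vehicle cells were in G1. S cells made up 29.0% with estradiol and 15.6% with vehicle, and G2M cells 36.4% with estradiol and 33.9% with vehicle. Of 8307 cells, 4 barcodes occurred in both libraries. Of 18 markers of basal, mesenchymal, immune and endothelial cells, 11 were at 0 UMIs in the all-gene rows of both libraries, KRT5, KRT14 and PECAM1 among them. The whole list summed to 173 CPM with estradiol and 220 CPM with vehicle. VIM made up most of it, at 119 CPM with estradiol and 158 CPM with vehicle, and FN1 and COL1A1 were the other markers with 50 UMIs. In panel rows, where 7 of the 18 were listed, the sum was 547 CPM with estradiol and 703 CPM with vehicle, nearly all of it COL1A1 and FN1. There PTPRC had 0 UMIs with estradiol and 3 with vehicle. VIM, FN1 and COL1A1 had ratios below 1 and were less than 1.5-fold lower, and the part of these markers in the results was not tested. Levels are given as CPM, which is UMIs summed over cells per 1000000 UMIs of that block, with exact 95% Poisson intervals, and folds as estradiol over vehicle with exact 95% Clopper-Pearson intervals. All these intervals cover counting error only, treat each UMI as independent and leave out variation between cells and between cultures.

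Most of the set was higher with estradiol. In the all-gene rows 34 of the 37 genes reached 50 UMIs over both libraries; 32 of them had a ratio above 1, 23 were at least 1.5-fold higher and 14 at least 2-fold higher. Among all 10977 genes that reached 50 UMIs, 3.82% were at least 1.5-fold higher and 0.811% at least 2-fold higher. The median log2 ratio was 0.85 over the 34 genes and -0.03 over all 10977. None of the 34 was at least 1.5-fold lower, against 6.67% of all genes, and AGR2 was the only one whose interval lay below a ratio of 1. In earlier work on these data 10 of the genes were named for their ratio. They were PDZK1, PGLYRP2, MGP, RAPGEFL1, PEG3, SLC7A5, NOS1AP, PKIB, GREB1 and RASGRP1. Of the 24 others that reached the minimum, 13 were at least 1.5-fold higher and 22 above 1, with a median log2 ratio of 0.63. These 24 were also chosen with earlier results of these data known, so their counts are a description and no independent check. The 3 genes below the minimum were KRT13, FHL2 and KCNK5.

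**Figure D1:**
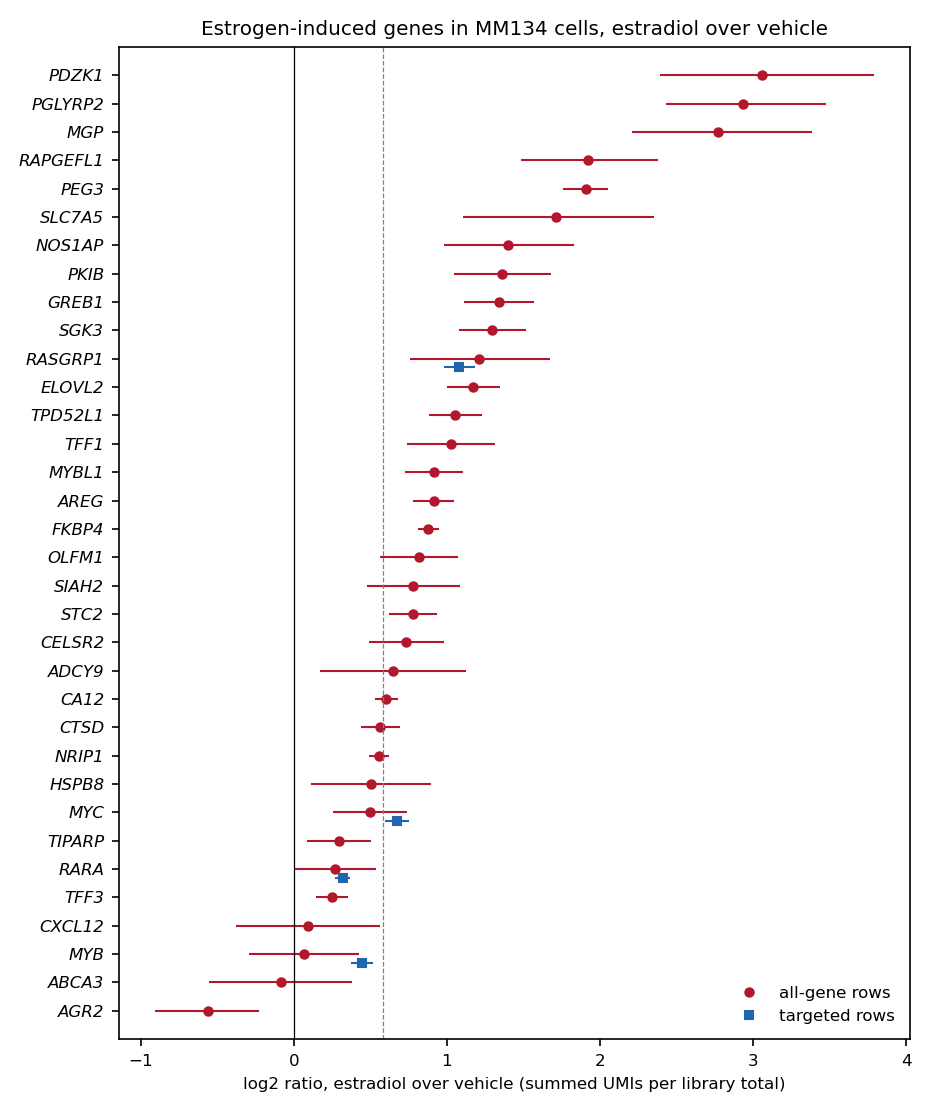
Log2 ratio of estradiol to vehicle (horizontal axis) for the 34 genes with at least 50 UMIs in the all-gene rows (circles) and the 4 genes with panel rows (squares); bars are 95% counting intervals, the solid line marks equal levels and the dashed line 1.5-fold. PDZK1, PGLYRP2 and MGP lie near a log2 ratio of 3, and AGR2, at -0.56, lies left of 0.

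Among the secreted proteins, PGLYRP2 and MGP stood highest. PGLYRP2, an amidase that cleaves bacterial peptidoglycan, had 243 UMIs (40.9 CPM, 35.9 to 46.4) with estradiol and 37 UMIs (5.35 CPM, 3.77 to 7.37) with vehicle. MGP, the matrix Gla protein that inhibits calcification, had 176 UMIs (29.6 CPM, 25.4 to 34.4) with estradiol and 30 UMIs (4.34 CPM, 2.93 to 6.19) with vehicle. The PGLYRP2 fold of 7.65 (5.4 to 11.1) and the MGP fold of 6.84 (4.62 to 10.4) were the next highest after PDZK1 among the 10977 genes. Both genes had been named earlier for their ratio, so these ranks are a description. TFF1, the trefoil peptide first known as the estrogen-induced pS2 gene, was at 46.5 CPM with estradiol (41.2 to 52.3) and 22.8 CPM with vehicle (19.4 to 26.7), 2.04-fold higher (1.67 to 2.49). TFF3, the related intestinal trefoil factor, was at 261 CPM with estradiol (248 to 274) and 220 CPM with vehicle (209 to 231), 1.19-fold higher (1.11 to 1.28). The intervals of the TFF1 and TFF3 folds, whose genes lie near each other on chromosome 21, did not overlap.

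AREG, the EGF receptor ligand amphiregulin, was at 198 CPM with estradiol (187 to 209) and 105 CPM with vehicle (97.4 to 113), 1.88-fold higher (1.72 to 2.07). STC2, the glycoprotein stanniocalcin 2, was at 138 CPM with estradiol (129 to 148) and 80.7 CPM with vehicle (74.1 to 87.6), 1.72-fold higher (1.54 to 1.91). OLFM1, a secreted olfactomedin, was at 54.6 CPM with estradiol and 30.9 CPM with vehicle, 1.76-fold higher (1.48 to 2.11). CXCL12, the chemokine that binds CXCR4, was close to equal at 12.8 CPM with estradiol and 12 CPM with vehicle, with an interval of the fold of 0.771 to 1.47.

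AGR2, a disulfide isomerase of the secretory pathway, went the other way. It was at 19.4 CPM with estradiol (16.0 to 23.2) and 28.6 CPM with vehicle (24.8 to 32.9), 1.48-fold lower (1.17 to 1.88) and thus short of the 1.5-fold mark. Its sign changed when the authors' clusters were weighted equally, as given with the clusters.

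The transcriptional regulators ranged from close to equal to 3.75-fold higher. PEG3, an imprinted zinc finger gene, was at 269 CPM with estradiol (256 to 282) and 71.7 CPM with vehicle (65.5 to 78.3), 3.75-fold higher (3.39 to 4.16). GREB1, a chromatin-bound partner of the estrogen receptor needed for hormone-driven growth, was at 84.9 CPM with estradiol (77.6 to 92.6) and 33.5 CPM with vehicle (29.4 to 38.1), 2.53-fold higher (2.16 to 2.97). MYBL1, a relative of MYB, was at 104 CPM with estradiol and 55.2 CPM with vehicle, 1.89-fold higher (1.66 to 2.15). NRIP1, the corepressor RIP140 that binds the hormone-bound receptor, was at 726 CPM with estradiol (704 to 748) and 494 CPM with vehicle (478 to 511), 1.47-fold higher (1.40 to 1.54).

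For MYC, MYB and RARA the panel rows gave narrower intervals than the all-gene rows. MYC, the growth-promoting transcription factor, was at 271 CPM with estradiol (261 to 282) and 170 CPM with vehicle (163 to 177) in panel rows, 1.60-fold higher (1.51 to 1.69), and in all-gene rows at 52.2 CPM with estradiol and 37.0 CPM with vehicle, 1.41-fold higher (1.19 to 1.67). MYB, a proto-oncogenic transcription factor, was at 288 CPM with estradiol and 212 CPM with vehicle in panel rows, 1.36-fold higher (1.29 to 1.43), and in all-gene rows at 20.9 CPM with estradiol and 19.9 CPM with vehicle, with a fold of 1.05 (0.815 to 1.34). The MYB panel fold lay just above the all-gene interval. RARA, the retinoic acid receptor alpha, was at 624 CPM with estradiol and 500 CPM with vehicle in panel rows, 1.25-fold higher (1.21 to 1.29), and in all-gene rows at 40.4 CPM with estradiol and 33.5 CPM with vehicle, with a fold of 1.21. With RASGRP1 at 2.12-fold, 2 of the 4 genes with panel rows were at least 1.5-fold higher, against 3.3% of all 940 panel genes, whose median log2 ratio was -0.11.

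FHL2, a LIM-domain cofactor, had 2 UMIs with estradiol and 4 with vehicle, too few to give a direction.

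Signalling genes and scaffolds held several of the highest ratios. PDZK1, a PDZ-domain scaffold of membrane transporters, had 150 UMIs (25.3 CPM, 21.4 to 29.6) with estradiol and 21 UMIs (3.04 CPM, 1.88 to 4.64) with vehicle. Its 8.32-fold ratio (5.25 to 13.8) was the highest of the 10977 genes. PDZK1 too had been named earlier for its ratio, so this rank is a description. A transcribed pseudogene, PDZK1P1, lies elsewhere on chromosome 1, and the rule for reads that match both copies was not given in the sources used here. RAPGEFL1, which resembles the exchange factors of Rap GTPases, was at 30.7 CPM with estradiol and 8.09 CPM with vehicle, 3.79-fold higher (2.79 to 5.21). RASGRP1, a Ras exchange factor, was at 195 CPM with estradiol (186 to 203) and 91.9 CPM with vehicle (87.0 to 97.0) in panel rows. In all-gene rows it was at 20.7 CPM with estradiol and 8.96 CPM with vehicle, 2.31-fold higher (1.69 to 3.19). The panel fold of RASGRP1, 2.12 (1.97 to 2.27), lay inside the wider all-gene interval.

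NOS1AP, an adaptor of neuronal nitric oxide synthase, was at 26.3 CPM with estradiol and 9.97 CPM with vehicle, 2.63-fold higher (1.97 to 3.55). PKIB, an inhibitor of protein kinase A, was at 45.3 CPM with estradiol and 17.6 CPM with vehicle, 2.57-fold higher (2.07 to 3.21). SGK3, a kinase of the PI3K pathway, was at 92.3 CPM with estradiol and 37.6 CPM with vehicle, 2.46-fold higher (2.12 to 2.86). SGK3 shares its exons with an annotated readthrough transcript from the neighbouring gene, so reads of these transcripts cannot be told apart. TPD52L1, a coiled-coil protein related to tumour protein D52, was at 129 CPM with estradiol and 62.2 CPM with vehicle, 2.08-fold higher (1.84 to 2.34). CELSR2, an adhesion receptor of the cadherin superfamily, was at 57.3 CPM with estradiol and 34.4 CPM with vehicle, 1.66-fold higher (1.41 to 1.97). ADCY9, an adenylyl cyclase, had the smallest fold of these signalling genes, 1.57 (1.13 to 2.18), at 15.2 CPM with estradiol and 9.68 CPM with vehicle.

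Metabolic and transport genes were split. SLC7A5, the LAT1 transporter of large neutral amino acids, had 87 UMIs (14.7 CPM) with estradiol and 31 UMIs (4.48 CPM) with vehicle, 3.27-fold higher (2.15 to 5.10). ELOVL2, which elongates polyunsaturated fatty acids, was at 137 CPM with estradiol (128 to 147) and 61.0 CPM with vehicle (55.3 to 67.1), 2.25-fold higher (2.0 to 2.54). CA12, a membrane carbonic anhydrase, was at 554 CPM with estradiol (535 to 573) and 364 CPM with vehicle (350 to 379), 1.52-fold higher (1.44 to 1.60). CTSD, the lysosomal protease cathepsin D, was at 200 CPM with estradiol and 135 CPM with vehicle, 1.48-fold higher (1.36 to 1.61). CA12 and CTSD thus stood on either side of the 1.5-fold mark with overlapping intervals. ABCA3, a lipid transporter, was at 12.1 CPM with estradiol and 12.9 CPM with vehicle, with an interval of the fold of 0.681 to 1.30. KCNK5, a potassium channel, had 8 UMIs with estradiol and 9 with vehicle.

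Of the chaperones, FKBP4, the FKBP52 cochaperone of steroid receptors, was at 729 CPM with estradiol (708 to 751) and 397 CPM with vehicle (382 to 412), 1.84-fold higher (1.75 to 1.93). The small heat shock protein HSPB8 was at 20.7 CPM with estradiol and 14.6 CPM with vehicle, 1.42-fold higher (1.08 to 1.86). SIAH2, a ubiquitin ligase, was at 38.2 CPM with estradiol and 22.3 CPM with vehicle, 1.72-fold higher (1.39 to 2.12). TIPARP, a mono-ADP-ribosyltransferase also induced by the aryl hydrocarbon receptor, was 1.23-fold higher (1.06 to 1.42), at 65.3 CPM with estradiol and 53.3 CPM with vehicle. KRT13, a keratin of stratified epithelium, had 0 UMIs in both libraries; a count of 0 allows up to 0.505 CPM with estradiol and 0.434 CPM with vehicle by the limit of 3 counts, and the exact Poisson interval used for the other genes reaches 0.621 CPM with estradiol and 0.533 CPM with vehicle.

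Because estradiol and vehicle cells differed in their phases, the ratios were also taken within each phase. In G1 cells 22 of 33 genes with 50 UMIs were at least 1.5-fold higher (6.0% of all genes), in S cells 12 of 23 (4.72%) and in G2M cells 24 of 33 (3.84%). The median log2 ratios were 0.90, 0.73 and 0.96, so the median was above 0 within every phase. AGR2 was below a ratio of 1 in each phase, with folds of 0.774 in G1 (0.553 to 1.07), 0.425 in S (0.229 to 0.774) and 0.903 in G2M (0.58 to 1.40). In S it was at 12 CPM with estradiol and 28.2 CPM with vehicle, the 1 gene of the 23 at least 1.5-fold lower there (5.32% of all genes). Of the 4 genes with panel rows, 1 was at least 1.5-fold higher in G1 (background 6.04%), 1 in S (1.77%) and 3 in G2M (3.05%).

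Of the 23 genes measured in all 3 phases, 15 had their smallest ratio in S and 4 their largest. The same count was not made over all genes, so it is not known to be particular to the set. The count also depends on the minimum of 50 UMIs, which left out genes in S, the phase with the fewest cells. Among genes left out there, PDZK1, SLC7A5, RASGRP1, HSPB8, ADCY9 and ABCA3 had their largest ratio in S. RAPGEFL1, NOS1AP, MGP and MYB had their smallest in S, and CXCL12 had neither. In G1 cells PEG3 was at 275 CPM with estradiol and 50.3 CPM with vehicle (5.48-fold, 4.56 to 6.61). In S cells PEG3 was at 185 CPM with estradiol and 88.5 CPM with vehicle (2.10-fold, 1.66 to 2.67), and in G2M cells at 321 CPM with estradiol and 88.0 CPM with vehicle (3.65-fold, 3.16 to 4.23). The counting intervals of the 3 phases did not overlap for PEG3, whose vehicle level was lowest in G1. STC2 was 1.61-fold higher in G1 (1.35 to 1.91), 2.41-fold higher in G2M (2.0 to 2.92) and close to equal in S, at 128 CPM with estradiol and 115 CPM with vehicle (0.887 to 1.40). MYBL1 was close to equal in S at 106 CPM with estradiol and 95.1 CPM with vehicle, and 2.14-fold and 2.0-fold higher in G1 and G2M. GREB1 was 2.87-fold, 1.65-fold and 2.85-fold higher in G1, S and G2M, and the S interval of 1.09 to 2.57 overlapped the other intervals. Of the 23 genes, the 4 with their largest ratio in S were CTSD, TPD52L1, PGLYRP2 and CELSR2. CTSD was 1.93-fold higher in S (1.57 to 2.39), 1.53-fold in G1 (1.34 to 1.75) and 1.28-fold in G2M (1.10 to 1.48), and the S and G2M intervals did not overlap. TPD52L1 was 2.38-fold higher in S (1.78 to 3.22) and PGLYRP2 9.03-fold (3.98 to 25.3), and their intervals overlapped those of the other phases. The PGLYRP2 ratio in S came from 85 UMIs with estradiol and 6 with vehicle. Whether these ratios differ between phases was not tested.

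AREG, TFF1 and MYC had their largest ratio in G2M cells. AREG was at 267 CPM with estradiol and 116 CPM with vehicle in G2M (2.31-fold, 2.02 to 2.64), and at 150 CPM with estradiol and 101 CPM with vehicle in G1 (1.48-fold, 1.25 to 1.75). TFF1 was 3.21-fold higher in G2M (2.12 to 4.98), where vehicle cells had 11.2 CPM, and 1.94-fold higher in G1 (1.45 to 2.59), where they had 30.3 CPM. In panel rows MYC was at 264 CPM with estradiol and 120 CPM with vehicle in G2M (2.20-fold, 2.0 to 2.42), and at 268 CPM with estradiol and 210 CPM with vehicle in G1 (1.27-fold, 1.17 to 1.39). The MYC level with estradiol ranged from 264 to 286 CPM over the phases, and the vehicle level from 120 to 210 CPM. FKBP4 had a similar ratio in each phase, 1.86, 1.73 and 1.86 in G1, S and G2M.

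**Figure D2:**
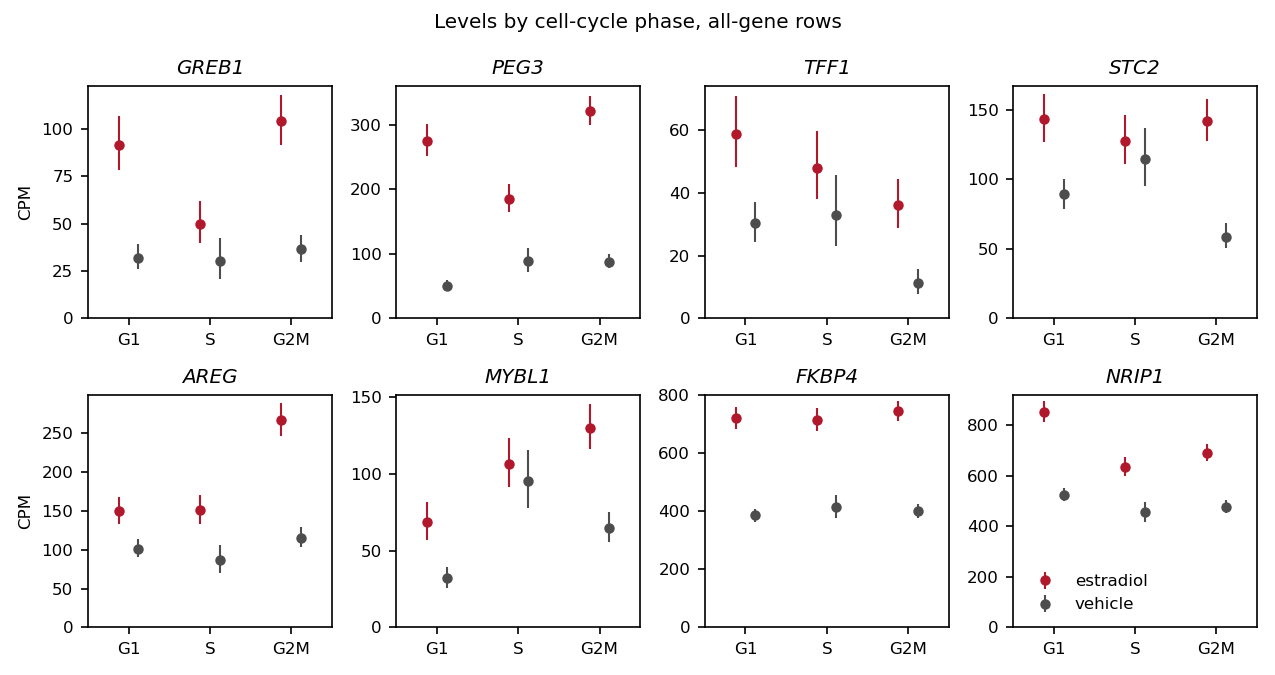
Levels of 8 genes in the all-gene rows (CPM, vertical axes from 0) in cells called G1, S and G2M, with estradiol (red, left of each pair) and vehicle (grey); bars are 95% Poisson intervals. The intervals of STC2, MYBL1, GREB1 and TFF1 overlap between treatments in S only, AREG with estradiol is highest in G2M at 267, and FKBP4 is even over the phases.

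The authors' annotation placed the cells in 8 clusters. Clusters are made from cells' own values, so levels by cluster are a description. The treatments filled the clusters unevenly. Cluster 2 held 2.44% of estradiol cells and 23.3% of vehicle cells, cluster 6 held 2.35% of estradiol cells and 12.7% of vehicle cells, and cluster 1 held 26.8% of estradiol cells and 12.1% of vehicle cells. Clusters 2, 5 and 6 were mostly G1 in both libraries, and cluster 4 was G2M alone.

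Of all genes, 46.6% to 53.8% had a ratio above 1, depending on the cluster, and 48.3% did in cluster 2. The counts of the set above 1 were 23 of 23 in cluster 0, 20 of 22 in cluster 1, 5 of 8 in cluster 2, 28 of 30 in cluster 3, 15 of 15 in cluster 4, 13 of 17 in cluster 5, 8 of 8 in cluster 6 and 10 of 10 in cluster 7. At least 1.5-fold higher were 18 of 23 in cluster 0 (background 4.4%), 11 of 22 in cluster 1 (5.36%), 4 of 8 in cluster 2 (13.2%) and 14 of 30 in cluster 3 (5.26%). In the remaining clusters they were 11 of 15 in cluster 4 (4.62%), 7 of 17 in cluster 5 (6.54%), 6 of 8 in cluster 6 (8.69%) and 9 of 10 in cluster 7 (6.08%). CA12, FKBP4 and NRIP1 were above 1 in all 8 clusters. FKBP4 ran from 1.32-fold in cluster 5 (1.13 to 1.55) to 2.41-fold in cluster 7 (1.91 to 3.04), and NRIP1 from 1.28-fold in cluster 3 (1.17 to 1.41) to 2.11-fold in cluster 2 (1.54 to 2.83).

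**Figure D3:**
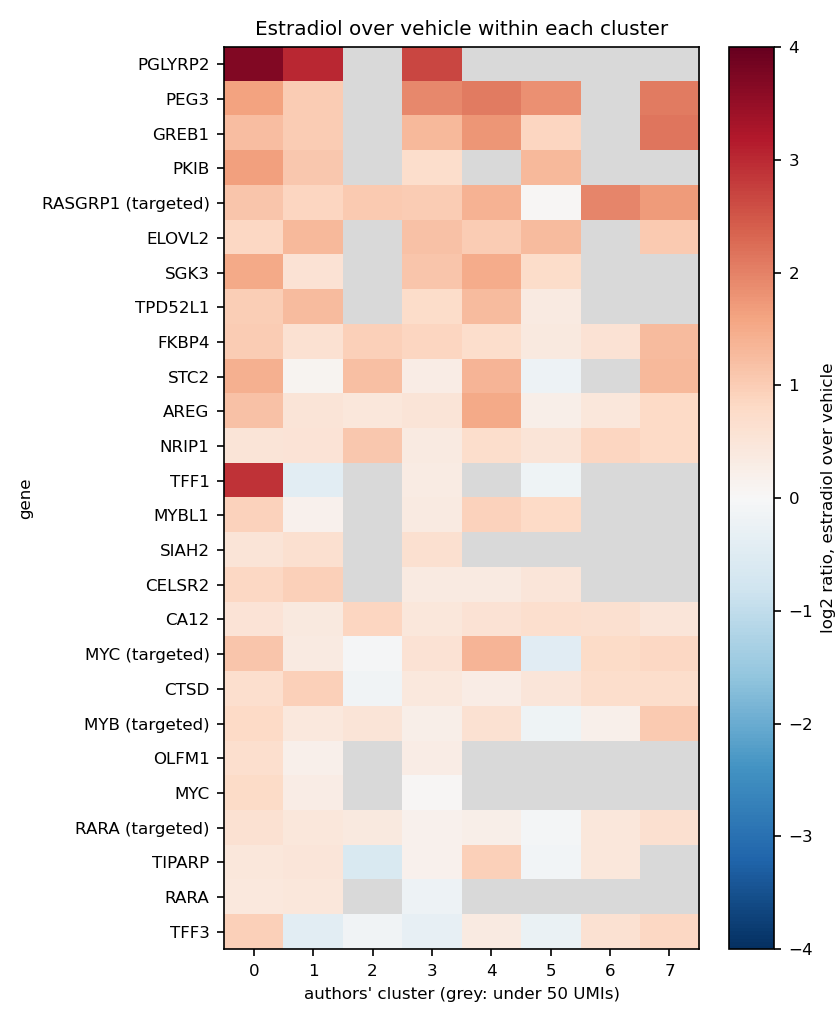
Log2 ratio of estradiol to vehicle (colour, red higher with estradiol) for each gene measured in at least 3 clusters (rows) in each of the authors' clusters (columns); grey cells had under 50 UMIs. Where coloured, PGLYRP2 and TFF1 are darkest in cluster 0, at log2 ratios of 3.70 and 2.88. PGLYRP2 had 54 UMIs there with estradiol and 4 with vehicle. TFF1 in cluster 6 was under 50 UMIs and is grey, so its larger ratio there is not shown. TFF3 is blue in clusters 1, 2, 3 and 5.

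The trefoil genes varied between clusters. In cluster 0, mostly G2M cells, TFF1 was at 48.3 CPM with estradiol (37.6 to 61.1) and 6.55 CPM with vehicle (3.00 to 12.4), 7.37-fold higher. In cluster 1 TFF1 was at 27.9 CPM with estradiol and 37.6 CPM with vehicle, and in cluster 5 at 90.0 CPM with estradiol and 102 CPM with vehicle. Both intervals of the ratio spanned 1. TFF3 in cluster 0 was at 280 CPM with estradiol (253 to 309) and 146 CPM with vehicle (126 to 167). In cluster 1 it was at 199 CPM with estradiol (174 to 227) and 264 CPM with vehicle (228 to 306). In cluster 3 it was at 289 CPM with estradiol and 365 CPM with vehicle, and in cluster 5 at 414 CPM with estradiol and 496 CPM with vehicle. The log2 ratio of TFF3 was thus 0.94 in cluster 0 and -0.41, -0.34 and -0.26 in clusters 1, 3 and 5, where the interval of cluster 5 reached 0.02. The overall fold of 1.19 for TFF3 combined ratios of opposite direction.

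Cluster 5, mostly G1 cells and similar in size in both libraries (365 estradiol and 364 vehicle cells), had the highest levels of several targets without added hormone. Its vehicle cells had TFF1 at 102 CPM (74.9 to 136), against 22.8 CPM over all vehicle cells, and panel MYC at 345 CPM (308 to 385), against 170 CPM over all. With estradiol, panel MYC in this cluster was at 250 CPM (217 to 286), a log2 ratio of -0.47 (-0.73 to -0.21), where the median over all panel genes was -0.02. In panel rows 1 of the 4 genes was above a ratio of 1 in cluster 5, with a median log2 ratio of -0.13; 3 of 4 were above 1 in cluster 2, and 4 of 4 in clusters 0, 1, 3, 4, 6 and 7. Of all panel genes, 47.7% were above 1 in cluster 5, 36.5% in cluster 2 and 31.2% to 35.8% in the others. In all-gene rows PEG3 was at 383 CPM with estradiol and 107 CPM with vehicle in cluster 5, 3.59-fold higher, so the genes of the set did not share a single pattern there.

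AGR2 showed an unequal spread over clusters. In cluster 6 it was at 189 CPM with estradiol (121 to 281) and 82.2 CPM with vehicle (65.0 to 103), from 24 UMIs in 13 of 79 estradiol cells and 78 UMIs in 58 of 626 vehicle cells. An estradiol cell of cluster 6, whose barcode occurred in both libraries, held 5 of the 24 UMIs. The log2 ratio of AGR2 was 1.20 within cluster 6, -0.56 over all cells, -0.36 without cluster 6, -0.63 without cells of shared barcode and 0.46 with each cluster at equal weight. In clusters 0 and 1, with under 50 UMIs each, its fold was 0.463 (0.219 to 0.928) and 0.452 (0.215 to 0.929). The direction of AGR2 over all cells thus changed with the weight given to the clusters.

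**Figure D4:**
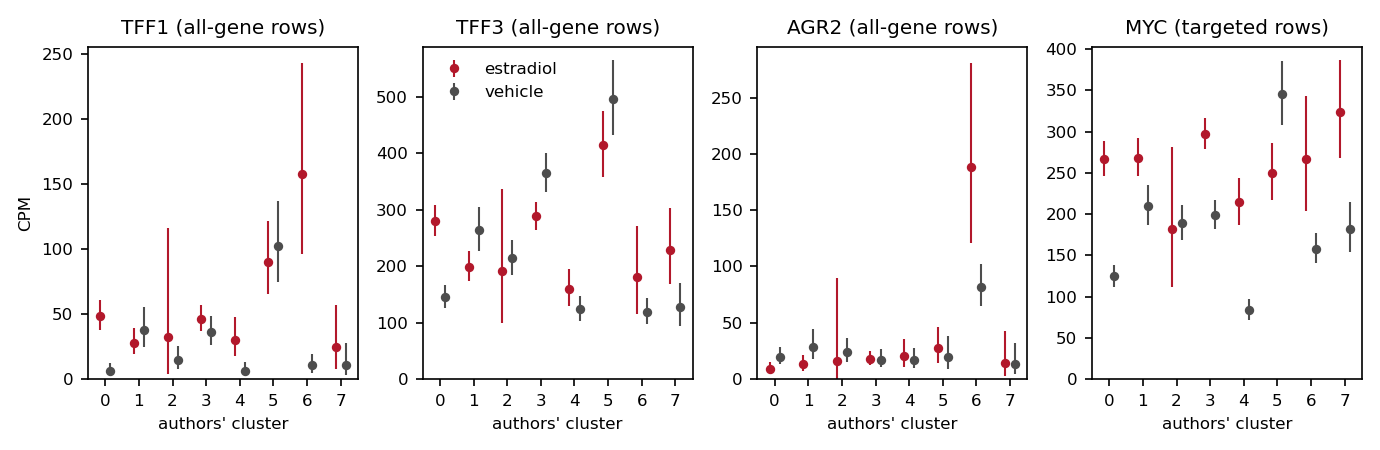
Levels (CPM, vertical axes from 0) of TFF1, TFF3 and AGR2 in the all-gene rows and MYC in the targeted rows by the authors' cluster (horizontal axis), with estradiol (red, left of each pair) and vehicle (grey); bars are 95% Poisson intervals. Vehicle cells of cluster 5 have TFF1 at 102, TFF3 at 496 and MYC at 345, and AGR2 is highest in cluster 6.

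Per cell, the UMIs of the set summed to a median of 40.5 per 10000 all-gene UMIs with estradiol (quartiles 28.6 and 54.9) and 21.4 with vehicle (12 and 34.0). The quartile ranges overlapped. Each cell held few UMIs of the set, so these ranges include counting error, and how far the levels of single cells overlap was not measured. By cluster, medians ran from 31.8 in cluster 2 to 49.1 in cluster 5 with estradiol, and from 17.6 in cluster 2 to 34.3 in cluster 5 with vehicle. The vehicle median of cluster 5 thus exceeded the estradiol median of cluster 2, which held 82 estradiol cells.

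Since estradiol cells were deeper, cells were also thinned to 800 all-gene UMIs, which kept 3228 estradiol and 3989 vehicle cells. The loss was uneven, with G1 cells falling from 2493 to 1749 with vehicle and from 1163 to 1083 with estradiol. In cluster 2 the cells fell from 1150 to 446 with vehicle and from 82 to 28 with estradiol, so thinned values describe the deeper cells. The median number of the 37 genes detected was then 3 with estradiol and 2 with vehicle; before thinning it was 5 with estradiol and 2 with vehicle. No gene of the set was detected in 4.43% of thinned estradiol cells and 17.9% of thinned vehicle cells. PEG3 was detected in 16.9% of thinned estradiol cells (exact 95% binomial interval 15.6 to 18.2) and 5.94% of thinned vehicle cells (5.23 to 6.72), and unthinned in 29.9% of estradiol and 8.60% of vehicle cells. GREB1 was detected in 5.76% of thinned estradiol cells (exact 95% binomial interval 4.98 to 6.62) and 2.48% of thinned vehicle cells (2.02 to 3.01), and unthinned in 13.0% of estradiol and 4.43% of vehicle cells. For both genes the gap was wider in unthinned cells, and the intervals at equal depth did not overlap. NRIP1 was detected in 42.0% of thinned estradiol cells (exact 95% binomial interval 40.3 to 43.7) and 32.4% of thinned vehicle cells (30.9 to 33.9), and unthinned in 65.1% of estradiol and 43.6% of vehicle cells. PDZK1 was detected in 2.17% of thinned estradiol cells (exact 95% binomial interval 1.69 to 2.73) and 0.251% of thinned vehicle cells (0.120 to 0.461), and unthinned in 4.10% of estradiol and 0.425% of vehicle cells. With 1 cell line there was no cell type that should lack these genes, so the share that free RNA could give was not measured.

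**Figure D5:**
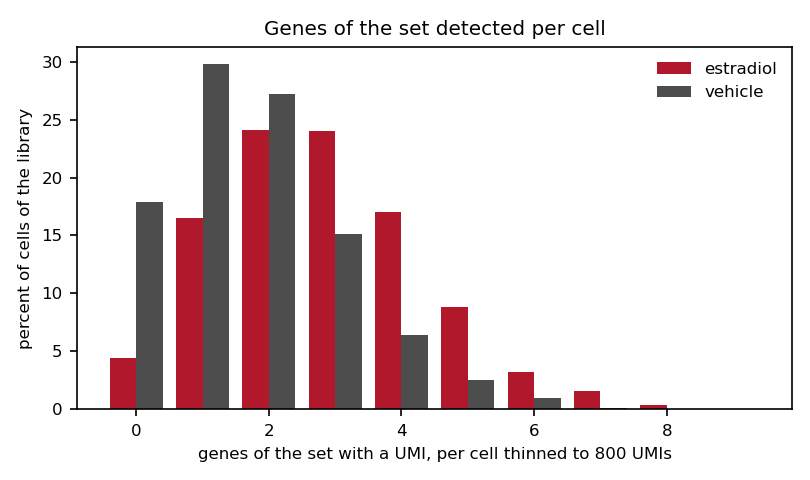
Percent of cells (vertical axis) by the number of genes of the set with a UMI (horizontal axis) after thinning to 800 UMIs, with estradiol (red, left of each pair) and vehicle (grey). Cells with 0 genes make up 4.43% with estradiol and 17.9% with vehicle, and cells with 4 genes 17.0% with estradiol and 6.42% with vehicle.

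TFF1 was concentrated in few cells. In the estradiol library the 1% of cells richest in TFF1 held 37.0% of its UMIs, and in the vehicle library 65.2%. For PKIB, with fewer UMIs than TFF1 in both libraries, these shares were 28.6% with estradiol and 47.5% with vehicle. AGR2 and MGP, also with fewer UMIs than TFF1 with estradiol, had higher shares there, 45.2% and 40.9%. In thinned cells the variance over the mean of TFF1 was 1.30 with estradiol and 1.77 with vehicle, where a value of 1 is Poisson counting, and that of CA12 was 1.04 in both. With estradiol it was higher than for TFF1 in TFF3 (1.63), MGP (1.43), AGR2 (1.39) and AREG (1.37), so this spread was not particular to TFF1. With vehicle these genes were below TFF1, with TFF3 at 1.59. Cells with a TFF1 UMI often had one of TFF3 as well. With estradiol, 40 of 107 thinned cells with TFF1 had TFF3 (37.4%, exact 95% binomial interval 28.2 to 47.3), against 14.8% of 3121 cells without TFF1. With vehicle it was 28 of 53 cells (52.8%, 38.6 to 66.7), against 12.6% of 3936. Cells of a library share its preparation, and these shares describe them.

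ESR1 itself was close to equal, at 273 CPM with estradiol and 262 CPM with vehicle in the all-gene rows (log2 ratio 0.06) and at a log2 ratio of -0.01 in panel rows. The counts of the lists that follow are set beside the shares over all genes, 3.82% at least 1.5-fold higher and 6.67% at least 1.5-fold lower. Of 26 measured genes for receptor partners and cofactors, 1 was at least 1.5-fold higher (TFAP2C, a transcription factor of luminal cells, 1.15 on the log2 scale) and 2 at least 1.5-fold lower (the coactivator NCOA3 at -0.80 and the kinase CDK7 at -0.77); the coactivator NCOA2 was at -0.52. The cofactor counts are near those shares. Of 52 other measured genes listed as estrogen-induced, 14 reached 1.5-fold higher and 4 reached 1.5-fold lower, at a median log2 ratio of 0.29; GFRA1, a receptor subunit for GDNF, led at 1.90, then AMZ1 at 1.61, PMAIP1 at 1.42 and WNT4 at 1.41. The immediate-early gene FOS, also on that list, was lower at -1.04. Of 24 measured genes listed as estrogen-repressed, 0 reached 1.5-fold higher and 17 reached 1.5-fold lower, at a median of -0.86, led by TXNIP at -1.90, BTG2 at -1.65, BCAS1 at -1.58 and DDIT4 at -1.57. The set's median of 0.85 stood above that of the other induced list, and both lists were written with results of these data known.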

How the data were processed

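MM134 cells of 2 treatments were profiled by single-cell libraries; the DNA repair (Haircut) rows were not used here. The authors deposited natural log values per gene and cell, with counts of UMIs per cell, the mitochondrial percent, the phase and the cluster of each cell. Per the submitters' processing notes the build was hg38, and Cell Ranger 3.0.2 was among the tools named. Undoing the natural log and the scaling to 10000 UMIs per cell and block gave back counts: 100% of the nonzero values were whole to 1e-06, and 100% of cell sums equalled the deposited totals. Counts were summed over cells per library, phase or cluster and divided by the block's total (Python 3.11.15, numpy 2.4.6, scipy 1.17.1, pandas 2.3.3), with exact 95% intervals. The ratio's interval was tested on simulated independent Poisson counts only. That checks the computation and not the extra variation between cells seen for some genes. The sequencing of the all-gene rows and the calling of clusters and phases were not given in the sources used here. A gene needed 50 UMIs over both libraries, and a fold of at least 1.5 was counted as higher or lower. All deposited cells were used without a doublet caller; an alternative dropped the 5% of cells richest in UMIs. The genes and all gene lists were chosen with earlier results of these data known. Every gene of the set is accounted for, with full values at 200 UMIs or more or a fold of at least 2; of other lists up to 4 genes by size of ratio are named, plus ESR1, and FOS, which was chosen after its values were seen. Alternatives covered scaling, count minimum, cell weights, phases, clusters and thinning.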

Additional observations from a re-analysis of the deposited data

Results flagged for a closer look

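TFF3 is given a closer look because its ratio of estradiol to vehicle in the all-gene rows ran in opposite directions in 2 of the authors' clusters. Its log2 ratio was 0.94 in cluster 0, with 400 UMIs with estradiol and 200 with vehicle, and -0.41 in cluster 1, with 229 UMIs with estradiol and 183 with vehicle. Neither counting interval reached 0 (0.69 to 1.19 and -0.69 to -0.12). Panel MYC likewise had a log2 ratio of 1.36 in cluster 4 (1.07 to 1.66) and of -0.47 in cluster 5 (-0.73 to -0.21). With 1 library per treatment the difference between clusters was not tested, and what the making of the clusters has to do with it was not tested.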

How the results depend on the processing

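No paired analysis was possible because each treatment had 1 library. The count of 23 genes at least 1.5-fold higher in all-gene rows ran from 19 to 25 under the other scalings, weights, minimums and left-out cells tried, and was 13 without the 10 genes named earlier. That last alternative, equal cluster weights, leaving out cluster 6 and leaving out shared barcodes were chosen after seeing the data. The panel count of 2 became 1 with equal cluster weights. Within S cells the all-gene count of 12 became 20 of 34 at a minimum of 20 UMIs, and the panel count of 1 became 2 with a median-of-ratios size factor. The median summed level of 40.5 per 10000 with estradiol and 21.4 with vehicle became 37.5 and 25 in thinned cells, where 1 UMI is 12.5 per 10000, and 33.3 and 16.9 without NRIP1. The means moved less on thinning, 42.8 with estradiol and 24.2 with vehicle as deposited and 42.9 with estradiol and 25.2 with vehicle thinned. Of 308 log2 ratios under these alternatives, 287 moved by less than counting error, 20 moved by more, and AGR2 reversed to 0.46 with equal cluster weights. The cause of the reversal was not tested. Equal cluster weights alone moved 11 of 38 ratios by more than counting error, besides the 1 reversed. A median-of-ratios size factor moved 4 of 38. Equal cell weights, leaving out cluster 6 and leaving out shared barcodes moved 0, so the pooled count is mostly from milder settings. In panel rows the median over all genes was -0.11, and in all-gene rows -0.03. Genes under about 100 UMIs have wide intervals, and 3 genes were not measurable at this depth.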

Other observations

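TFF1 in cluster 6, below the count minimum, was at 157 CPM with estradiol (96.1 to 243) from 20 UMIs and at 10.5 CPM with vehicle (5.05 to 19.4) from 10 UMIs. The 20 UMIs came from 11 of 79 estradiol cells and the 10 UMIs from 9 of 626 vehicle cells. Panel RASGRP1 in the same cluster was at 391 CPM with estradiol and 101 CPM with vehicle, 3.87-fold higher, against 1.04-fold in cluster 5.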
